A study of Homo sapiens with 79 samples.

Results

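The candidates described here are the cells of days 90 and 200 whose reads point to horizontal or amacrine cells, the inhibitory interneurons of the retina. A cell was a candidate when at least 2 of 8 marker genes (TFAP2A, TFAP2B, PTF1A, ONECUT1, LHX1, GAD1, GAD2 and SLC32A1) had at least 5 reads each. It was left out when 3 or more of 6 matrix genes (COL3A1, COL1A1, DCN, LUM, MGP and OLFML3) reached 5 reads. The rule took 56 of the 1398 cells of days 90 and 200, in a series of 1976 cells, and it left out 4 further cells by their matrix genes.

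The cells came from retinal organoids grown from 1 human embryonic stem cell line that carries a GFP reporter in CRX, a photoreceptor gene. All groups shared this line and the same culture additives, which were Y27632 in the first days and then serum, T3, taurine and retinoic acid. Organoids were dissociated and single cells were captured on Fluidigm C1 chips, with 1 chip at day 60, 1 chip at day 90 and 2 chips, a and b, at day 200. Chips were the replicates, because the columns of a chip share 1 cell suspension, and nothing states whether the 2 day 200 chips came from separate cultures, so a p-value measures only the spread between chips.

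Horizontal cells sit in the outer retina and feed inhibition back onto photoreceptors, while amacrine cells shape the signals that bipolar cells pass to ganglion cells. Both arise early from progenitors that have used PTF1A, and TFAP2A and TFAP2B are transcription factors of both lineages. ONECUT1 and LHX1 are regulators of horizontal cells. GAD1 and GAD2 encode the enzymes that make GABA, and SLC32A1 encodes the transporter that loads GABA or glycine into synaptic vesicles, which most amacrine cells use for release.

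Candidates were a small share of every chip. They made up 26 of 661 cells at day 90, or 3.93% (exact 95% binomial interval, 2.59 to 5.71). Chip a of day 200 held 11 among 356 cells, or 3.09% (1.55 to 5.46), and chip b held 19 among 381 cells, or 4.99% (3.03 to 7.68). The same rule took 22 of 578 cells at day 60, or 3.81% (2.4 to 5.71). The 4 intervals overlapped, and with 1 chip at day 90 no test between days was possible. The intervals and the limits given for counts of 0 cover counting error only, because the reads carry no molecular identifiers.

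**Figure D1:**
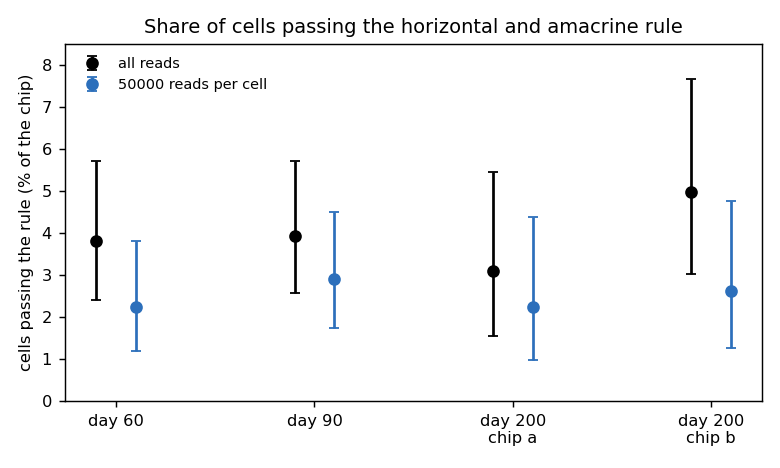
Share of cells that passed the rule on each chip (y axis, % of the cells of the chip) from all reads (black) and after each cell was thinned to 50000 reads (blue); bars are exact 95% binomial intervals. The share lies between 3.09% and 4.99% on the 4 chips from all reads, and all intervals overlap.

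Depth bears on a rule that counts reads. Candidates had a median of 214749 reads against 198175.5 in the other cells of days 90 and 200, and a median of 3683.5 detected genes against 3239. After thinning every cell to 50000 reads, the rule took 19 cells (2.90%) of day 90, and 8 (2.25%) and 10 (2.62%) of the day 200 chips. The candidates lay in 37 of the 60 columns of the 3 chips, with at most 4 in a column. None of the 56 was among the 26 cells that scrublet called as doublets. Of these calls 24 lay on chip a, 1 on the day 90 chip and 1 on chip b. With so few calls, this says little about the candidates of day 90 and chip b.

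Of the label's markers, GAD1 and TFAP2A carried the selection and LHX1 carried none of it. GAD1 reached 5 reads in 43 of the 56 candidates, TFAP2A in 33, GAD2 in 24, ONECUT1 in 12, SLC32A1 in 12 and TFAP2B in 10. LHX1 and PTF1A had 0 reads in all 1398 cells of these days, which allows up to 0.215% of cells with a read. At day 60 LHX1 reached 5 reads in 4 of the 22 cells that passed the rule and PTF1A in 1 of them. Because these genes chose the candidates, their values are a description and were not tested.

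Single marker genes also occurred outside the candidates, GAD1 and GAD2 most often. By the rule, a cell outside them held 2 or more at 5 reads only if its matrix genes left it out. Among the 1342 other cells, 110 had at least 5 reads of GAD1, 70 of GAD2, 33 of TFAP2A, 19 of ONECUT1, 7 of TFAP2B and 2 of SLC32A1. In all, 233 cells had exactly 1 marker gene at 5 reads, and 205 of them had no read of a second one. Just outside the rule lay 2 cells whose second gene had 3 or 4 reads, and just inside it lay 11 candidates whose second gene had 5 to 9 reads. The second gene had a median of 39 reads in the candidates, with a range of 5 to 463.

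Summed reads were scaled to a common library size (CPM), without correction for gene length. TFAP2A stood at 270 CPM in the candidates of day 90 and at 655 and 302 on chips a and b of day 200, against 6.99, 15.5 and 5.01 in the other cells. GAD1 stood at 471, 661 and 234 CPM against 26.01, 28.8 and 18.4. GAD2 stood at 93.7, 122 and 138 CPM against 12.9, 33.9 and 45.97. Expression of ONECUT1 was 155 CPM at day 90 and 90.1 and 12.4 CPM on the day 200 chips, against 4.59, 2.04 and 5.24 in the other cells. SLC32A1 was found at 69.1 CPM at day 90 and 72.3 CPM on chip b, and had 0 reads on chip a in candidates and other cells alike.

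The marker genes occurred in 23 combinations, of which 38 cells held exactly 2 genes, 14 held 3 and 4 held 4. The most frequent were TFAP2A with GAD1 alone, in 12 cells with 4 on each chip, and GAD1 with GAD2 alone, in 11 cells split as 4, 2 and 5 over day 90, chip a and chip b. By transmitter genes, 42 candidates had a GABA or vesicular transporter gene and no ONECUT1, 3 had ONECUT1 without such a gene, 9 had both and 2 had TFAP2A and TFAP2B only. The 9 with both were all from day 90. With 3 cells of the ONECUT1-only kind and none of them at day 90, the kinds were not tested against each other.

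Candidates were then compared with all other cells of the same chip, to see which genes outside the rule set them apart. Neuronal genes were higher in the candidates. The edgeR quasi-likelihood test on the reads summed per chip, with the chip as block, called 17 of 16344 genes at an adjusted p under 0.05, or 0.104%. Of these, 9 were higher (0.0551%) and 8 lower (0.0489%). TFAP2A and GAD1, both of the rule, were among the higher genes, and COL3A1, COL1A1 and MGP, which the rule excludes, among the lower ones, and these 5 are not results. The median log2 fold change over all genes was −0.78, and 7.97% of genes were higher and 26.03% lower on all 3 chips. Without the chip as block the test called 0 genes, with 1436 at an unadjusted p under 0.05, and DESeq2 called 708. With the 18 candidates of at least 3 marker genes, which numbered 11 at day 90 but 1 and 6 on the day 200 chips, it called 16, of which 5 were among the 17.

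STMN2, which encodes a growth-associated tubulin-binding protein of neurons, stood at 2352 CPM in the candidates of day 90 and at 854 and 1035 on chips a and b of day 200. The other cells had 129, 81.2 and 130 CPM. The groups did not overlap, and the log2 fold change was 3.56 ± 0.29 (SE, n = 3 chips, edgeR adjusted p = 0.000959). STMN2 had at least 5 reads in 35 of 56 candidates (62.5%) and in 205 of 1342 other cells (15.3%).

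NSG2, a neuron-specific protein of the endosome, stood at 548, 392 and 311 CPM in the candidates of day 90, chip a and chip b, and at 32.7, 37.9 and 28.1 CPM in the other cells. Its log2 fold change was 3.67 ± 0.37 (edgeR adjusted p = 0.0031), with no overlap between the groups. DCX, a microtubule protein of young neurons, reached 1728 CPM at day 90, above the 435 and 466 CPM of the day 200 chips, against 171, 100.1 and 119 CPM in the other cells. The difference was 2.51 ± 0.32 on the log2 scale (edgeR adjusted p = 0.0204). CELF4, an RNA-binding protein of neurons, stood at almost the same level on the 3 chips, at 472, 439 and 535 CPM, against 77.3, 74.2 and 80.8 CPM (2.67 ± 0.31, edgeR adjusted p = 0.00936).

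CAMKV, a kinase-like protein of synapses, had the largest rise among the 7 genes outside the rule, at 284, 356 and 234 CPM against 5.13, 13.0 and 6.29 CPM (5.30 ± 0.48, edgeR adjusted p = 0.00156). Its reads came from few cells, since 11 of the 56 candidates had at least 5 reads, with 5, 1 and 5 on the 3 chips. CRMP1, which takes part in axon guidance, stood at 803, 905 and 350 CPM against 211, 253 and 129 CPM (1.77 ± 0.26, edgeR adjusted p = 0.049). SCG2, a granin of secretory vesicles, stood at 350, 109 and 678 CPM against 34.3, 31.3 and 83.5 CPM (2.77 ± 0.42, edgeR adjusted p = 0.0495). SCG2 was no longer called without the 5 candidates that carried HOX genes (1.97, adjusted p = 0.721), which are described below, nor without chip b (2.67, adjusted p = 0.0668). CRMP1 was not called without chip a (1.72, adjusted p = 0.0783).

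In the 18 candidates of at least 3 marker genes, most of these neuronal genes lost their call. STMN2 (3.64, edgeR adjusted p = 0.00366) and CAMKV (6.68, 0.00175) were still called. NSG2 (2.99, edgeR adjusted p = 0.696), DCX (1.21, 0.795), CELF4 (3.21, 0.403), CRMP1 (1.78, 0.551) and SCG2 (4.01, 0.403) were not, and all 5 kept their sign.

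**Figure D2:**
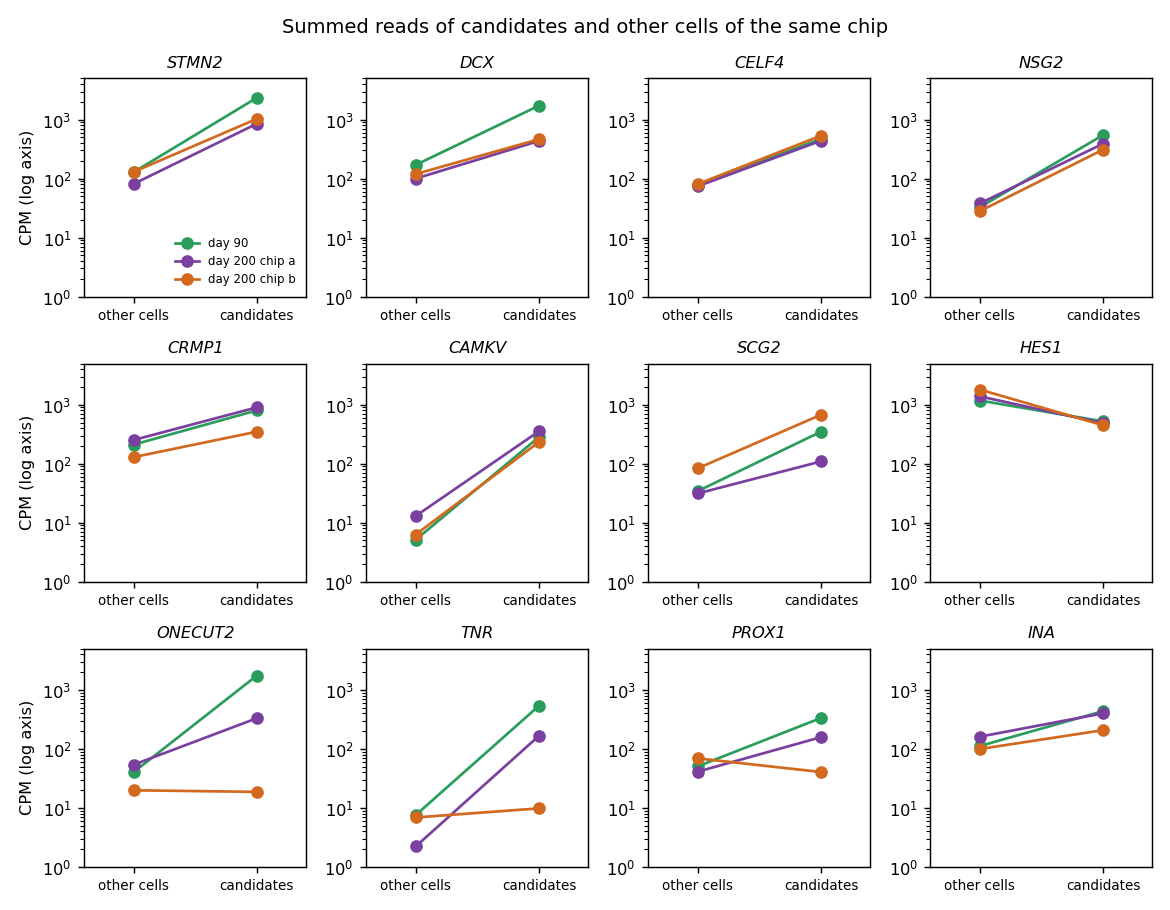
Summed reads of 12 genes in CPM (y axis, log scale) in the other cells and in the candidates of the day 90 chip and the 2 day 200 chips; each line joins the 2 values of 1 chip. The 7 genes from STMN2 to SCG2 rise and HES1 falls on all 3 chips, while ONECUT2 and PROX1 are not higher in the candidates of chip b.

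Genes of the pan-neuronal list followed in number but mostly not past the threshold. Of its 13 tested members, STMN2 and DCX were called. On all 3 chips 9 of the 13 were higher, against 7.97% of all genes. Their median log2 fold change was 1.36 against −0.78 over all genes. SNAP25, a part of the machinery for vesicle release, stood at 116, 295 and 318 CPM against 66.2, 99.97 and 106 CPM (edgeR adjusted p = 0.68). INA, a neuronal intermediate filament, stood at 437, 401 and 208 CPM against 112, 161 and 99.4 CPM (edgeR adjusted p = 0.342). Counted by cells, at least 4 of the 15 genes had 5 reads in 44 of 56 candidates (78.6%, exact interval 65.6 to 88.4) and in 371 of 1342 other cells (27.6%, 25.3 to 30.1).

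The genes called as lower outside the rule were HES1, TTR, TGFBI, COL8A1 and PI15. HES1, a transcription factor of progenitors and Müller glia, stood at 523, 485 and 449 CPM in the candidates of day 90, chip a and chip b and at 1180, 1389 and 1810 CPM in the other cells. It fell by 1.53 on the log2 scale (SE 0.23, edgeR adjusted p = 0.049), but missed the threshold with DESeq2 size factors in edgeR (adjusted p = 0.0642) and with DESeq2 (0.097), in a range of 0.000236 to 0.305 over all alternatives. It was not called either without chip a (−1.56, adjusted p = 0.107) or without the 5 candidates that carried HOX genes (−1.54, adjusted p = 0.0504). HES1 was the 1 member called among 12 of the glia and progenitor list. On all 3 chips 9 of the 12 were lower, beside 26.03% of all genes. The median of the list, −0.88, lay close to the −0.78 of all genes. The list summed to 3433, 5261 and 5745 CPM in the candidates and to 6428, 10314 and 10635 CPM in the other cells.

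TTR, the thyroxine carrier made by pigment epithelium, stood at 2.83, 0 and 0.188 CPM in the candidates of the 3 chips and at 308, 53.03 and 29.05 CPM in the other cells (edgeR adjusted p = 0.0315). TGFBI, a matrix protein, stood at 2.61, 0 and 6.97 CPM against 202, 73.8 and 366 CPM (edgeR adjusted p = 0.0188). COL8A1, a collagen, stood at 4.57, 0 and 0.942 CPM against 316, 67.9 and 88.0 CPM (edgeR adjusted p = 0.0315), and PI15, a secreted protease inhibitor, at 0.435, 0 and 0.942 CPM against 41.1, 27.8 and 261 CPM (edgeR adjusted p = 0.049). These reads lay in a minority of the other cells, with at least 5 reads of TTR in 91 and of PI15 in 79 of the 1342, and the 4 genes were not called when each cell had equal weight in limma. Without day 90, TTR and COL8A1 were not called (edgeR adjusted p = 0.854 and 0.256), nor was PI15 without chip b (0.969). In the 18 candidates of at least 3 marker genes none of the 4 was called (edgeR adjusted p = 0.403 for each), while HES1 was (−5.02, 0.00142). Since the rule excluded cells with several matrix genes, TGFBI, COL8A1 and PI15 are not independent of it.

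Reads of dividing cells were few in the candidates. MKI67, a marker of cycling cells, reached 5 reads in 0 of 56 candidates, which allows up to 5.36%, and in 61 of 1342 other cells (4.55%). Of the 9 genes of the cycling list, 8 were lower on all 3 chips and none passed the threshold, beside 26.03% of all genes that were lower on all 3 chips. The median of the list was −6.59 against −0.78 over all genes, with sums of 84.1, 83.4 and 89.3 CPM against 896, 619 and 271 CPM. A difference in MKI67 was not detectable with 56 candidates.

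The horizontal cell genes that the rule did not use showed a split between the chips. ONECUT2, a relative of ONECUT1, stood at 1753 CPM in the candidates of day 90 and at 331 and 18.7 on chips a and b of day 200, against 40.3, 53.9 and 19.9 CPM in the other cells. The candidates stood above the other cells of day 90 and of chip a but not of chip b. Expression of TNR, a matrix glycoprotein of the nervous system, was 538, 167 and 9.80 CPM against 7.52, 2.21 and 6.87 CPM. PROX1, a transcription factor of horizontal cells and of some amacrine and bipolar cells, stood at 334, 158 and 40.5 CPM against 50.5, 41.04 and 68.98 CPM.

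None of the 8 genes of this list was called by edgeR, with adjusted p = 0.746 for ONECUT2, 0.593 for TNR and 0.802 for PROX1. Their median log2 fold change was 1.12 against −0.78 over all genes. When each cell weighed the same in a limma test on log2(CPM + 1), ONECUT2 and TNR passed the threshold. At least 5 reads of TNR were found in 16 of 56 candidates (28.6%, exact interval 17.3 to 42.2) and in 21 of 1342 other cells (1.56%, 0.971 to 2.38). For ONECUT2 the counts were 22 candidates (39.3%, 26.5 to 53.2) and 110 other cells (8.20%, 6.78 to 9.79).

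The 12 candidates with ONECUT1, 9 of day 90, 2 of chip a and 1 of chip b, carried 64.04% of the ONECUT2 reads of all candidates, 60.6% of the TNR reads and 56.3% of the PROX1 reads. The sums were lowest on chip b in the cells with and without ONECUT1 alike. ONECUT2 stood at 2619, 1061 and 20.7 CPM in the candidates with ONECUT1 of day 90, chip a and chip b, and at 1043, 207 and 18.6 CPM in those without it. ONECUT2 reached 5 reads in 10 of the 12, with a median of 2277 CPM and a highest value of 8064 CPM, and in 12 of the 44 candidates without ONECUT1. TNR was found in 8 of the 12 with a median of 755 CPM, and in 8 of the 44. PROX1 was found in 7 of the 12 and in 8 of the 44, and ONECUT3, a further member of the family, in 6 and in 4.

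Neuronal genes were found in these cells too, with at least 5 reads of STMN2 and of CELF4 in all 12 and of DCX in 10. STMN2 had a median of 3009 CPM in them and 319 CPM in the other 44. PAX6, a regulator kept by horizontal and amacrine cells, was found in 11 of the 12. MEGF10, a receptor that spaces horizontal and starburst amacrine cells, was found in 7 of the 12 and in 9 of the 44. At least 7 genes of the glia and progenitor list were found in 3 of the 12, and 4 passed the photoreceptor rule given below. The grouping by ONECUT1 was set after its values had been seen, so these counts were not tested.

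The 12 cells were not alike. The candidate with most horizontal genes, from day 90, had 6 of the 8, among them 1384 CPM of ONECUT2, 699 of TNR, 321 of PROX1 and 173 of ESRRB, a nuclear receptor. Its ONECUT1, at 14.4 CPM, was the lowest of the 12, and TFAP2A and TFAP2B had no reads in it. It also had 5 genes of the photoreceptor list, among them 312 CPM of OTX2, 168 of PDE6H and 153 of NRL. A further cell of day 90 had 8064 CPM of ONECUT2 and 2446 CPM of PROX1 with 1505 CPM of GAD1 and 285 CPM of SLC32A1. On chip a, 1 cell had 2658 CPM of ONECUT2, 1865 of TNR and 1636 of PROX1 without GAD1, GAD2 or SLC32A1. The other cell of chip a had ONECUT1 and TFAP2A with none of the 8 horizontal genes, and carried 2334 CPM of HES1, 4200 of SFRP2 and 1528 of OTX2, which are genes of progenitors, glia and photoreceptors.

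CALB1 and ISL1, which mark subsets of horizontal cells, were sparse, with at least 5 reads in 3 and 4 of the 56 candidates. CALB1 stood at 3.04, 0 and 30.5 CPM against 18.2, 13.3 and 22.7 CPM in the other cells. ISL1 stood at 30.9, 0 and 1.13 CPM against 3.06, 8.27 and 7.64 CPM. Both groups overlapped for each gene.

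**Figure D3:**
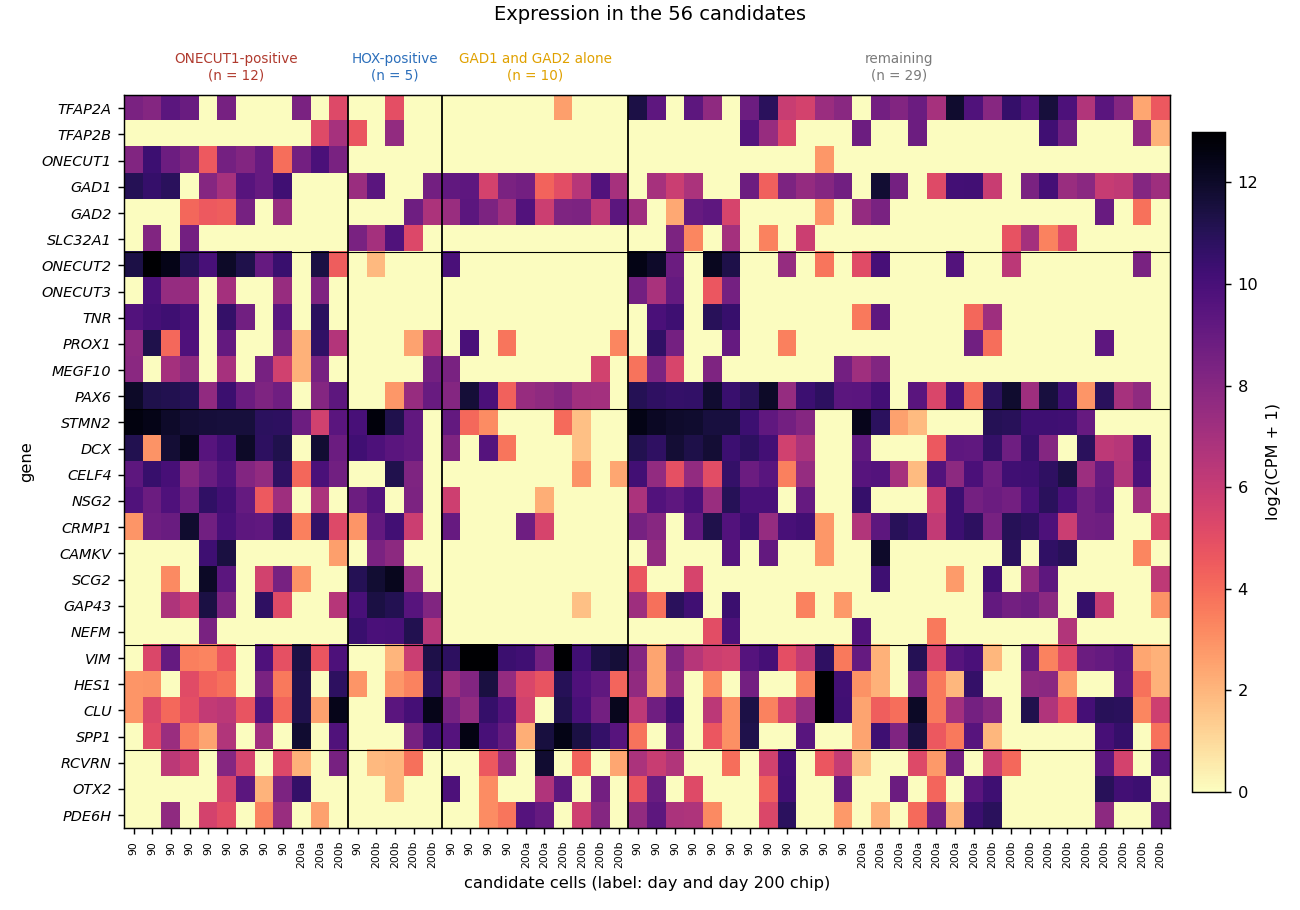
Expression of 28 genes (rows) in the 56 candidates (columns, labelled with the day and, at day 200, the chip) as log2(CPM + 1). Columns are grouped into 12 cells with ONECUT1, 5 with at least 3 HOX genes, 10 with GAD1 and GAD2 as their only marker genes and 29 others; rows run from marker genes over horizontal and neuronal genes to glial and photoreceptor genes, and STMN2 fills the first block and is sparse in the third.

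A gene of GABA breakdown and a gene of its precursor supply, both named after their values had been seen, were not called. ABAT, the enzyme that breaks GABA down, stood at 88.7, 75.6 and 137 CPM in the candidates of day 90, chip a and chip b and at 67.3, 57.1 and 83.2 CPM in the other cells (edgeR adjusted p = 0.884). SLC38A1, which takes up the glutamine that neurons turn into GABA, was found in 40 candidates, at 314, 487 and 291 CPM against 246, 260.4 and 196 CPM (edgeR adjusted p = 0.755). Both values were higher in the candidates on all 3 chips.

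The glycine genes were sparse and none was called. Their sum was 16.3, 88.6 and 15.64 CPM in the candidates of day 90, chip a and chip b and 19.95, 25.7 and 33.9 CPM in the other cells, so that the candidates stood higher on chip a alone. SLC6A9, the glycine transporter of glycinergic amacrine cells, reached 5 reads in 1 of 56 candidates and in 54 of 1342 other cells. GLRB, a glycine receptor subunit, reached 5 reads in 4 candidates, 3 of them on chip a. In 47 of the 56 candidates no gene of the glycine list reached 5 reads.

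Regulators of amacrine fate did not set the candidates apart. None of 14 tested members was called. On all 3 chips 1 was higher and 5 were lower, beside 7.97% and 26.03% of all genes. The median was −1.17 against −0.78 over all genes. MEIS1, a homeobox factor of the developing retina, was found in 27 candidates, at 178, 154 and 221 CPM against 119, 131 and 109 CPM (edgeR adjusted p = 0.862). NEUROD1, which photoreceptor precursors also use, stood at 32.4, 210 and 85.5 CPM against 189, 220 and 172 CPM. FOXN4, PRDM13 and BHLHE22, factors of amacrine fate, reached 5 reads in 1, 1 and 4 candidates.

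Markers of amacrine subtypes appeared in single cells. TH, the enzyme of dopamine synthesis, reached 5 reads in 2 candidates, both of day 90, and PENK, an opioid precursor, in 3 candidates, all of chip b, where its sum was 208 CPM against 8.56 CPM in the other cells. SLC18A3 and SLC5A7, transporters of cholinergic starburst cells, reached 5 reads in 1 candidate each, on chip b. No gene of these lists was called.

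The 11 candidates with GAD1 and GAD2 as their only marker genes looked unlike the others in their remaining reads. VIM, an intermediate filament of glia and progenitors, reached 5 reads in all 11, with a median of 2479 CPM and a range of 378 to 8719 CPM. HES1, CLU and SPP1 were each found in 10 of the 11, with medians of 271, 816 and 1215 CPM. STMN2 reached 5 reads in 1 of the 11, CELF4 in 0 and SCG2 in 0. The 11 cells were not alike, since 3 had at least 4 pan-neuronal genes and 3 passed the photoreceptor rule given below. Of the latter, 1 cell of chip a had 3624 CPM of RCVRN and 1503 of ARR3, both photoreceptor genes.

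Of the 15 pan-neuronal genes a median of 1 was found in these 11 cells, against 5.5 in all 56 candidates and 2 in the other cells. Of the 12 glia and progenitor genes a median of 8 was found, against 5 in all candidates and 6 in the other cells. At least 7 glia genes were found in 8 of the 11 cells, and in 15 of all 56 candidates (26.8%, exact interval 15.8 to 40.3) against 644 of 1342 other cells (48.0%, 45.3 to 50.7). Their expression went against the label of inhibitory interneurons, and they are named here by their genes only. They were picked by their combination of marker genes after values had been seen, and no test was made.

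**Figure D4:**
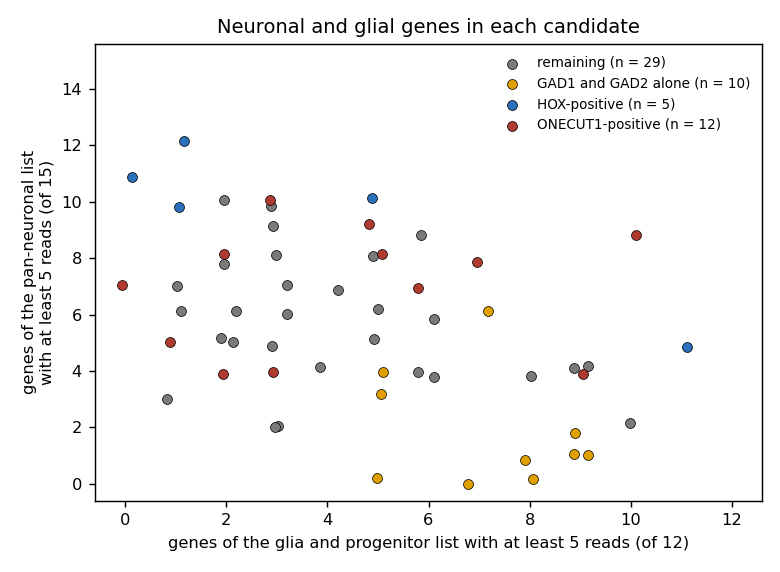
Number of pan-neuronal genes (y axis, of 15) against glia and progenitor genes (x axis, of 12) with at least 5 reads in each of the 56 candidates, with points shifted slightly to separate them; colours give the 4 groups of cells. Cells with GAD1 and GAD2 alone have 0 to 6 neuronal and 5 to 9 glia genes, and those with ONECUT1 all have at least 4 neuronal genes.

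The 12 candidates with SLC32A1 lay at the other end. All 12 had at least 5 reads of STMN2, with a median of 2170 CPM, 11 had NSG2 and 10 each had DCX, CELF4 and CRMP1. A median of 9.5 pan-neuronal genes was found in them, and none had 7 or more glia genes. They came from day 90 and chip b, with 6 cells each.

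Part of the SLC32A1 cells carried HOX genes, which pattern the hindbrain and spinal cord and are not normally expressed in the retina. Of the 56 candidates, 5 had at least 5 reads in 3 or more HOX genes, with 1 from day 90 and 4 from chip b. This was 8.93% of the candidates (exact interval 2.96 to 19.6) and close to the 9.17% of the other cells (123 of 1342, 7.68 to 10.8). Of the 5, 4 had SLC32A1 and 1 had GAD1 and GAD2 alone.

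The 4 HOX cells with SLC32A1 had 10 to 12 pan-neuronal genes. NEFM, a neurofilament of long axons, stood at 1372, 978, 1004 and 2244 CPM in them and GAP43, a growth cone protein, at 1024, 2685, 2150 and 737 CPM. SCG2 stood at 2129, 3456, 4998 and 196 CPM. ONECUT1, ONECUT3 and TNR had no reads in these cells, and PAX6 had 0, 0, 6.00 and 173 CPM. The fifth HOX cell, from chip b, had 4 HOX genes with 1777 CPM of HES1, 2479 of VIM, 492 of PAX6 and 201 of SIX6, a regulator of the eye field.

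Over all candidates NEFM stood at 92.6, 107 and 321 CPM against 26.9, 22.2 and 57.5 CPM in the other cells, a log2 fold change of 2.22 ± 0.50 (edgeR adjusted p = 0.319). Without the HOX cells the log2 fold change was 0.16. The 4 HOX cells with SLC32A1 were 1 of the 26 candidates at day 90 and 3 of the 19 on chip b, and the test was repeated without all 5. STMN2, NSG2, DCX, CELF4 and CAMKV remained called without them, while CRMP1 missed the threshold (log2 fold change 1.76, edgeR adjusted p = 0.0529).

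At day 60 most cells that passed the rule carried HOX genes. Of the 22 cells, 20 had at least 3 HOX genes (90.9%, exact interval 70.8 to 98.9), against 210 of 556 other cells (37.8%, 33.7 to 41.9). ONECUT1 was found in 4 of the 22 and TNR in 0. The summed HOX reads were 2199 CPM in these cells and 154, 35.8 and 702 CPM in the candidates of day 90, chip a and chip b. With 1 chip at day 60 the days were not tested.

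The candidates were also compared with 407 photoreceptor-lineage cells of the same chips, chosen by at least 5 reads in 2 of CRX, RCVRN, AIPL1, IMPG2, NRL and ARR3 and by the same limit on matrix genes. Both comparisons use the same candidates. No gene passed the threshold. The edgeR test called 0 of 14009 genes (0%), with 781 at an unadjusted p under 0.05, while DESeq2 called 526 and limma on cell means 203. The smallest adjusted p was shared by 8 genes, among them STMN2, NSG2, DCX and CAMKV with log2 fold changes of 4.35, 4.01, 3.08 and 4.83 (edgeR adjusted p = 0.0543). Of the 13 tested genes of the pan-neuronal list, 5 were higher and 2 lower on all 3 chips, against 8.97% and 22.6% of all genes.

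STMN2 stood at 130, 17.5 and 111 CPM in the photoreceptor-lineage cells of day 90, chip a and chip b, below the candidates on every chip. Genes that the photoreceptor rule did not use were lower, with PDE6H, a cone phosphodiesterase subunit, at 108, 334 and 185 CPM in the candidates and 1305, 1810 and 1126 CPM in the photoreceptor-lineage cells. OTX2, a regulator of photoreceptor and bipolar fate, stood at 159, 275 and 348 CPM against 827, 632 and 844 CPM. All 11 tested members of the photoreceptor list were lower on all 3 chips, 6 of them genes of the photoreceptor rule, against 22.6% of all genes, whose median log2 fold change was −0.54. The photoreceptor-lineage cells were chosen by photoreceptor reads, so nothing is read from this count.

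Candidates passed the photoreceptor rule about as often as other cells. The photoreceptor rule was passed by 14 of the 56 candidates (25.0%, exact interval 14.4 to 38.4) and by 407 of 1342 other cells (30.3%, 27.9 to 32.9). Of the 12 candidates with TFAP2A and GAD1 alone, 5 passed it. NEUROD1 was found in 9 of these 12, with a median of 263 CPM, OTX2 in 7, with a median of 478 CPM, and RCVRN in 7. STMN2 was found in 4 of them and DCX in 7. Without the 14 cells the comparison with other cells called 54 genes in place of 17, and all 17 were among them. The other cells kept the 407 that pass the photoreceptor rule, so nothing is read from this rise.

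Bipolar and ganglion cell genes gave no call. LHX4, a bipolar regulator, was found in 14 candidates, at 81.1, 79.7 and 88.9 CPM against 65.9, 59.04 and 62.7 CPM. Of the 8 genes of the bipolar list, LHX4 was the 1 higher on all 3 chips. Another 1 was lower, beside 7.97% and 26.03% of all genes. The median of the list was −1.66 against −0.78 over all genes. The list summed to 150, 346 and 138 CPM in the candidates and to 279, 314 and 198 CPM in the other cells. POU4F2, a regulator of ganglion cells, reached 5 reads in 2 candidates of chip b. PAX6 stood at 1356, 414 and 626 CPM against 350, 432 and 392 CPM. It belongs to the retinal identity list, of which none of the 6 genes was called. On all 3 chips 0 were higher and 3 were lower, beside 7.97% and 26.03% of all genes. The median of that list was −1.06 against −0.78 over all genes.

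Genes of each list for other tissues outside the HOX clusters were found in a minority of the candidates. In 48 of the 56 candidates no forebrain gene reached 5 reads, in 49 no gene of neural crest and Schwann cells and in 46 no hindbrain and spinal cord gene outside the HOX clusters. The matrix list outside the rule summed to 160, 479 and 454 CPM in the candidates and 1847, 808 and 1974 CPM in the other cells, with TGFBI as its 1 call. The list of surface ectoderm and lens summed to 234, 284 and 748 CPM against 398, 484 and 567 CPM, higher in the candidates on chip b alone, and in 37 of the 56 candidates none of its genes reached 5 reads. No gene of the lists of forebrain, neural crest, hindbrain and surface ectoderm was called. Of the stress genes none was called and 3 of 6 were lower on all 3 chips, beside 26.03% of all genes.

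The genes named here lie on GRCh38 at the positions given by GENCODE 44. ONECUT1 lies on chromosome 15 (52755053 to 52791078, minus strand), TFAP2A on chromosome 6 (10393186 to 10419659, minus strand), GAD1 on chromosome 2 (170813213 to 170861151, plus strand) and TNR on chromosome 1 (175315194 to 175743595, minus strand). Of 40 named genes checked, 14 have an exon overlapped by another gene on the opposite strand, TFAP2A, GAD1, TNR, CELF4 and CRMP1 among them, and because the library kit does not mark strand such reads cannot be told apart.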

How the data were processed

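Reads of single cells were trimmed with Trimmomatic 0.33, aligned with STAR 2.4.0 to GRCh38.p7 and counted with HTSeq 0.6 by the authors, who also filtered cells and genes. The authors ran day 90 first, with more concentrated spike-in RNA than later, and allowed its cells a higher share of spike-in reads. Differences between day 90 and the other days cannot be told apart from these. The deposited values are counts of reads per gene and cell, without molecular identifiers and without normalization. The spike-in row and 166 rows with no gene name (together 0.034% of reads) were removed, which left 24248 rows. A column of a chip held 3414268 to 7994770 reads at days 90 and 200, with 62624 to 541843 reads per candidate.

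The candidates, the gene lists and the alternatives were chosen with earlier results of these data known. Counts were summed per chip over candidates and over the cells they were compared with, and tested with edgeR 4.0.16 (quasi-likelihood, TMM, filterByExpr, chip as block, Benjamini-Hochberg, threshold 0.05) under R 4.3.3. The block follows from the chip that both sums share. Tests on cell means of log2(CPM + 1) used limma 3.58.1, and DESeq2 1.42.0 was an alternative. Intervals are exact binomial (scipy 1.17.1). Scrublet (scanpy 1.11.5), run per chip, marked doublets, and none was removed.

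In a simulation of the comparison with other cells on 15702 genes, 14% of genes changed 4-fold and 69% of genes changed 16-fold were recovered among 100 of each, all at 50 CPM or more, with 3 false calls. In the comparison with photoreceptor-lineage cells, on 12822 genes, the shares were 19% and 66%, with 7 false calls. Simulated counts took the means of the cells compared against and the dispersions of the edgeR fit, with as many falls as rises. They do not copy reads that sit in few of the candidates, so recovery in the real sums may differ.

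The genes named are those of the rule, members of the lists, and genes past the threshold with 50 CPM in the higher group and 1 direction on every chip. Groups of candidates by marker combination were formed after values had been seen. Some genes of the lists are not reported here. The test of horizontal-type against amacrine-type candidates was left out, since it had been set to need at least 3 cells of each type on every chip.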

Additional observations from a re-analysis of the deposited data

Results flagged for a closer look

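Of 159 tested genes outside the rule, from the lists or past the threshold, 11 were flagged. Their difference between candidates and other cells had 1 sign on the day 90 chip and the opposite sign on both day 200 chips. A flag also needed at least 5 CPM in 1 of the groups and an absolute log2 ratio of at least 0.2, both on every chip. The difference between days was not tested, since day 90 has 1 chip. That chip also had more spike-in RNA and a looser limit on spike-in reads. Values are log2 ratios of (CPM + 1), in the order day 90, chip a, chip b.

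Among genes of neurons, ISL1, of some horizontal cells, had 2.97, −3.21 and −2.02, and BHLHE22, an amacrine factor, 0.54, −2.81 and −0.98. MEGF11, of horizontal and starburst cells, had 0.30, −3.88 and −1.34. SYT1, a calcium sensor of synaptic vesicles, had −0.30, 1.08 and 0.39. PRDM1, a photoreceptor fate factor, had −0.69, 0.56 and 0.82. The bipolar list gave CABP5 with 0.59, −5.56 and −4.72 and CA10 with 1.88, −4.21 and −2.36.

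Among the other lists, SOX9, of glia and progenitors, had 0.49, −3.25 and −0.23, and PDGFRB, of matrix cells, −1.16, 0.34 and 1.08. HOXB3 had 0.98, −3.51 and −1.08 and HOXB9 3.44, −2.69 and −1.70. Most of these values rest on reads in few candidates. ISL1 reached 5 reads in 4 of the 56, CABP5 in 1, CA10 in 3 and HOXB9 in 2.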

How the results depend on the processing

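The number of candidates was 56. With at least 3 marker genes it was 18 (1.29% of all cells, 1.66% for the day 90 chip, 0.281% for chip a, 1.57% for chip b), and after thinning to 50000 reads 37 (2.66%, with 2.62% on chip b). Thresholds of 3 or 10 reads, no exclusion by matrix genes, removal of doublets and a filter on depth and mitochondrial reads gave 40 to 61.

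Against other cells, 17 genes were called. DESeq2 called 708, 104 higher and 604 lower, and edgeR without the filter on low counts called 31. Limma on cell means called 94, 85 higher and 9 lower, so the share of higher calls depends on the tool. Without candidates that pass the photoreceptor rule, and with the other cells unchanged, 54 were called. Leaving out 1 chip at a time gave 36 to 75 calls. With no replicate block, the fit made 0 calls, with 1436 genes at an unadjusted p under 0.05. The fit with the block had 1082 such genes. With at least 3 marker genes NEFM turned to −0.31.

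Against photoreceptor-lineage cells, 0 genes were called. DESeq2 size factors in edgeR gave 8, DESeq2 526, no filter 40, limma on cell means 203, candidates without HOX cells 12, with at least 3 marker genes 12, and without cells passing the photoreceptor rule 16. Leaving out 1 chip gave 26 to 82, and the fit with no replicate block gave 0. Leaving out a chip leaves 2 pairs. The cause of these changes was not tested.

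Over the named genes and both comparisons, 319 values kept their sign and their side of the threshold, 74 passed it only under the alternative, 38 no longer passed it and 1 turned. The 38 were all against other cells. The alternatives for horizontal-type against amacrine-type candidates were not run, because the comparison was set to be tested only with at least 3 cells of each type on every chip, and the horizontal type had 0, 2 and 1.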
